A study of Mus musculus with 19 samples.

Results

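Among bulk RNA sequencing libraries of mouse oral tumours, 5 with the highest and 5 with the lowest level of skeletal muscle transcripts were set side by side over all genes. They are called muscle-rich and muscle-poor below, and they were chosen by measured values, not by treatment. The ranking used 15 of the 19 libraries of the series, those without regorafenib monotherapy. Each was placed by the sum of the raw counts-per-million (CPM, a gene's counts relative to the library's total) of Ttn, Neb, Ryr1 and Acta1. The 5 libraries between the chosen sets and the 4 regorafenib libraries took no part in the comparison and are used further down as libraries that the choice left out.

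All libraries came from C57BL/6J mice that drank 4-nitroquinoline 1-oxide (4NQO, a carcinogen that induces tumours of the tongue and mouth) at 100 µg/ml for 10 weeks, starting at 6 weeks of age, and that drank plain water afterwards. The tissue is labelled oral squamous cell carcinoma, and polyA RNA was sequenced. The 15 ranked libraries comprise 4 vehicle, 3 anti-PD1, 5 combination (regorafenib with anti-PD1) and 3 anti-CD40 agonist libraries. Regorafenib, an oral multikinase inhibitor, was given alone at 5 mg/kg/day, and no separate dose is given for the combination. Anti-PD1 is an antibody that blocks the PD1 checkpoint receptor of T cells, and the CD40 agonist is an antibody that activates antigen-presenting cells. The muscle-rich set holds 2 combination, 2 anti-CD40 and 1 vehicle library and no anti-PD1 library. The muscle-poor set holds 2 anti-PD1 libraries and 1 each of vehicle, combination and anti-CD40. Total counts ran from 16776177 to 24969492 per library.

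The tongue is built mostly of skeletal muscle under a squamous epithelium, so a piece of a tongue tumour can carry muscle fibres along with the tumour. A fibre contracts when thick filaments of myosin pull on thin filaments of actin inside the sarcomere. Calcium released from the sarcoplasmic reticulum starts the contraction, and creatine kinase, glycogen breakdown and mitochondria supply the ATP. Ttn encodes titin, the giant spring that spans the sarcomere from Z disc to M line. Neb encodes nebulin, which lies along the thin filament. Ryr1 encodes the calcium release channel of the reticulum, and Acta1 the actin of the adult thin filament.

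Genes of differentiated muscle often carry short motifs near their start. The E-box (CANNTG on both strands, a palindrome) is the motif that MyoD family factors bind. TATAAA, searched on both strands, is a core promoter element. The MEF2 element and the CArG box are bound by MEF2 and SRF. The 150 bases before the RefSeq start (build GRCm38.p6, written 5′ to 3′ on the gene's strand) are shown for a pair of ranking genes, for Ankrd2, which is among the genes with the largest differences, and for Parp12, which lay lower in the muscle-rich set. Capitals mark matches to any of the 4 motifs. The Acta1 window is chr8:123894776-123894925 on the minus strand and holds a CArG box and TATAAA. The Ttn window, chr2:76982548-76982697 on the minus strand, holds 1 E-box. The Ankrd2 window, chr19:42035877-42036026 on the plus strand, holds 3 E-boxes and TATAAA. The Parp12 window, chr6:39118350-39118499 on the minus strand, holds no match to these letters. The Ckm window of the same length holds no match either, and that of Mylpf, a fast myosin light chain gene, holds 1 E-box.
Acta1: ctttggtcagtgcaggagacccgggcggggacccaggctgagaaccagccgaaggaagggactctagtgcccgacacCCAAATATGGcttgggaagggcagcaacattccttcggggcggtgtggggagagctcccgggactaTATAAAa
Ttn: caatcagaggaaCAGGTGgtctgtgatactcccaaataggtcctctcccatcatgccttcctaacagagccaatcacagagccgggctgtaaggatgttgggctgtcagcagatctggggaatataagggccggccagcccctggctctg
Ankrd2: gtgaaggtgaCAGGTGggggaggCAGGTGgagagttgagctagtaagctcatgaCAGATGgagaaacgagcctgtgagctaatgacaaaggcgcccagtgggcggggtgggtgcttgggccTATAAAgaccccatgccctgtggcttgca
Parp12: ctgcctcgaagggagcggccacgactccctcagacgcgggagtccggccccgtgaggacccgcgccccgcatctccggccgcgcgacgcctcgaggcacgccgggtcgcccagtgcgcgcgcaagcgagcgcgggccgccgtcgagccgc

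Of the 59 genes in the thick filament, thin filament and calcium coupling lists, 42 had a RefSeq promoter. In the 250 bases before the start, 23.8% of these 42 held a MEF2 element, against 3.01% of all 27025 promoters. A CArG box stood in 14.3% of the 42 and in 1.40% of all promoters. The E-box was common everywhere, at 78.6% of the 42 and 66.0% of all, and TATAAA stood in 14.3% and 13.0%. The 345 matched genes that lay higher in the muscle-rich set as a whole held these motifs at 58.6% (E-box), 6.96% (TATAAA), 3.77% (MEF2 element) and 1.16% (CArG box). A match describes letters in this window and is not evidence of binding.

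The 4-gene sum of the muscle-rich set was 11843 raw CPM in combination 3, 11612 in anti-CD40 2, 10989 in combination 1, 10606 in vehicle 4 and 10585 in anti-CD40 1. In the muscle-poor set it was 9575 in anti-PD1 1, 9095 in anti-PD1 3, 8868 in vehicle 2, 8597 in combination 4 and 8574 in anti-CD40 3. The 5 between them held 9682 to 10550. The cut therefore falls inside a continuous range: the lowest muscle-rich library (10585) and the highest middle one (10550, anti-PD1 2) are close, as are the highest muscle-poor library (9575) and the lowest middle one (9682, vehicle 1). The 4 regorafenib libraries, at 6489 to 7917, all lie under the muscle-poor set. The contrast in muscle content is small: the mean of the sum was 11127 ± 577 (SD, n = 5) against 8942 ± 414 (SD, n = 5), a ratio of 1.24 or 0.32 on the log2 scale.

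Acta1 gave the most counts of the 4 without regard to length, from 5316 to 6070 raw CPM in the muscle-rich and from 4118 to 5014 in the muscle-poor libraries (ENSMUSG00000031972.5, chromosome 8, 123891769 to 123894751, GRCm38). Ttn ran from 2598 to 3032 against 1838 to 2358 (ENSMUSG00000051747.15, chromosome 2, 76703980 to 76982547). Neb ran from 1550 to 1663 against 1185 to 1386 (ENSMUSG00000026950.18, chromosome 2, 52136647 to 52378474). Ryr1 ran from 970 to 1180 against 826 to 925 (ENSMUSG00000030592.18, chromosome 7, 29003344 to 29125179). None of the 4 overlaps between the sets, and this is what the ranking selected for.

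**Figure D1:**
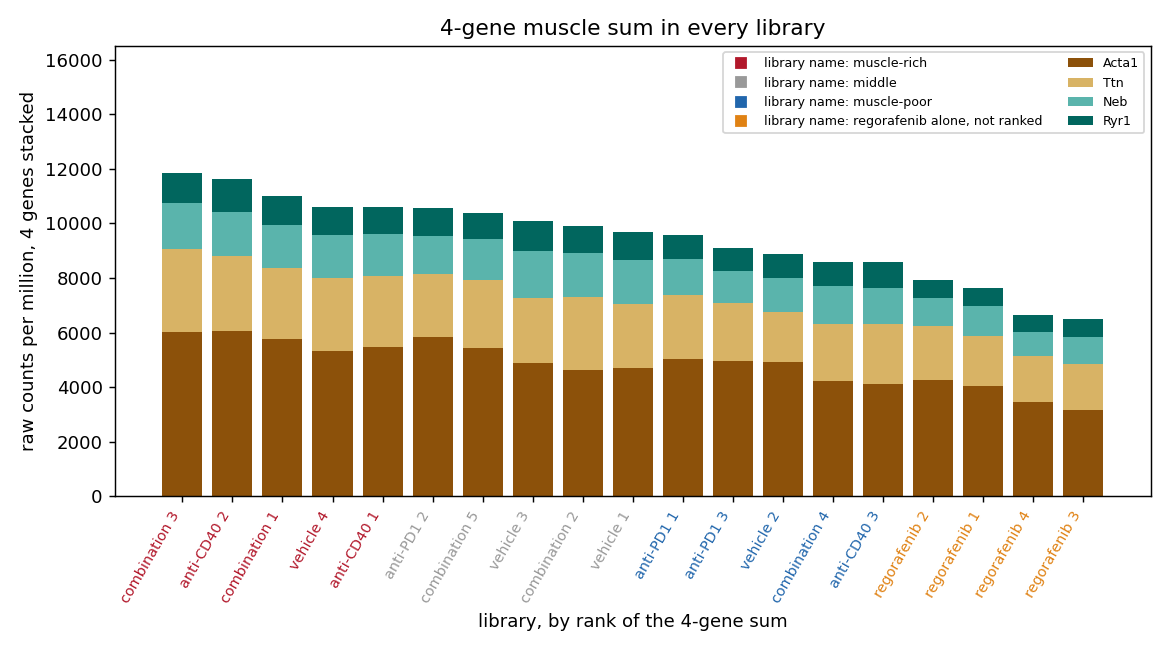
Stacked bars give the raw CPM of Acta1, Ttn, Neb and Ryr1 in each of the 19 libraries, ordered by rank, with regorafenib alone last. The sum falls gradually from 11843 to 8574 over the ranked libraries, with no gap at either edge of the chosen sets.

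The labels were checked against muscle genes that the ranking did not use. Over 52 other genes of the contractile and calcium coupling lists, the mean log2 CPM was 7.84 to 8.22 in the muscle-rich and 7.46 to 7.83 in the muscle-poor libraries. The sets do not overlap, but vehicle 4 (7.84) and vehicle 2 (7.83) nearly touch. Ranked by these 52 genes, the muscle-rich libraries take places 1, 2, 4, 5 and 6 of 15. The muscle-poor libraries take places 7, 9, 10, 14 and 15, so vehicle 2 and both anti-PD1 libraries stand in the middle by this measure. The 52 genes took 5.22% to 6.18% of all counts in the muscle-rich libraries, 4.31% to 4.76% in the muscle-poor and 3.22% to 3.90% in the regorafenib libraries. "Muscle-poor" is thus relative: every library holds abundant muscle RNA. It also holds squamous epithelium: Krt5, the keratin of basal keratinocytes, was at 1940 to 2387 CPM in the muscle-rich and 2063 to 2696 in the muscle-poor libraries.

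**Figure D2:**
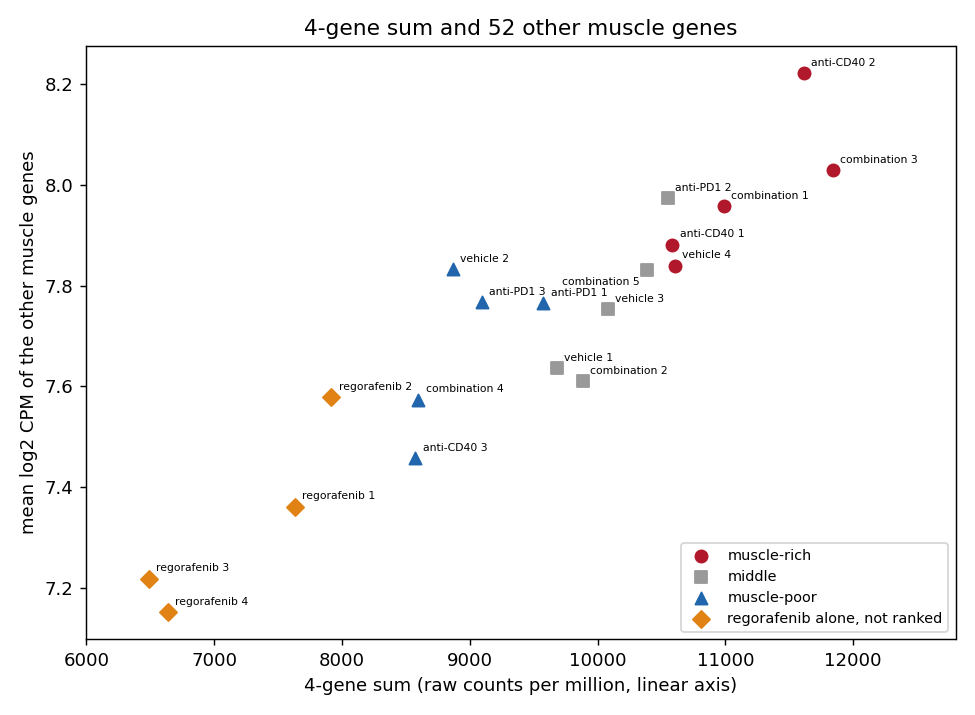
Each point is a library, with its 4-gene sum in raw CPM on the x axis and the mean log2 CPM of 52 other muscle genes on the y axis. The muscle-rich libraries sit at 7.84 to 8.22, while vehicle 2, anti-PD1 1 and anti-PD1 3 of the muscle-poor set sit at 7.77 to 7.83, above some middle libraries.

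All further levels are CPM scaled by the trimmed mean of M-values (TMM), and differences are of the mean log2 CPM, muscle-rich minus muscle-poor, with their standard error (SE). Because the libraries were chosen by muscle transcripts, these differences are a description without a test. A gene is counted as higher when all 5 muscle-rich libraries lie above all 5 muscle-poor ones, and as lower in the opposite case. Of 16909 genes tested, 460 (2.72%) were higher and 101 (0.597%) lower in this sense. On unscaled raw CPM the counts were 299 and 161. The share of higher genes among those counted was then 65%, against 82% with TMM scaling, and the median of all genes moved to -0.04 from 0.00. Most differences are small: the median was 0.31 for the 460 and -0.27 for the 101, and only 27 and 18 of them reached 1.5-fold. With the same TMM scaling, the 4-gene sum itself differed by 0.36 ± 0.06 (SE). Of the 456 higher genes outside the ranking, 175 (38.4%) had a larger difference. The count depends on single libraries, since each one left out makes separation easier. Without anti-PD1 3 there were 935 higher genes, without anti-CD40 1 777, without vehicle 4 715 and without anti-PD1 1 703. Lower genes numbered 309 without vehicle 4, 281 without anti-CD40 1, 241 without anti-PD1 1, 229 without combination 1, 224 without anti-PD1 3, 191 without combination 4, 173 without vehicle 2 and 164 without anti-CD40 3.

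Muscle genes lay almost uniformly higher. Of 117 genes tested in 9 muscle lists, the 4 ranking genes left out, 109 had a higher mean in the muscle-rich set, 24 were higher without overlap and 0 lower. Over all genes tested, 49.1% had a higher mean, 2.72% were higher without overlap and 0.597% lower. The counts of each list below stand beside these shares. The 24 are a small part of the 460, of which 426 are in none of the 31 lists used here. In bulk tissue, fewer muscle fibres and less RNA per fibre cannot be told apart.

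In the thick filament list, 3 of 12 tested genes other than titin were higher without overlap, and the median difference was 0.29. Myom2, which encodes an M-line protein that ties thick filaments together, stood at 728, 768, 691, 694 and 607 CPM in the muscle-rich libraries (combination 3, anti-CD40 2, combination 1, vehicle 4, anti-CD40 1). The muscle-poor libraries held 545, 581, 556, 464 and 522 CPM (anti-PD1 1, anti-PD1 3, vehicle 2, combination 4, anti-CD40 3). The difference was 0.39 ± 0.08 (SE), or 1.31-fold. Its relative Myom1 (0.29) was also free of overlap. Titin, chosen by the ranking, differed by 0.41 ± 0.06. Myosin heavy chains were less orderly. Myh4, the fast IIB myosin, was at 12953 ± 1690 against 10594 ± 950 CPM (SD, n = 5), and the sets overlap. Myh2, the IIA myosin of oxidative fast fibres, ran from 98.5 to 184 against 19.2 to 157 CPM. Its mean difference was 1.25 ± 0.52, but vehicle 2 of the muscle-poor set (157) lies above vehicle 4 (98.5) and anti-CD40 1 (110). Myh7, the slow myosin, was at or near 0 everywhere, at most 1.02 CPM.

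In the thin filament and Z disc list, 7 of 23 genes other than Acta1 and Neb were higher without overlap, with a median difference of 0.31. They are the fast troponins Tnnt3, Tnni2 and Tnnc2, the tropomyosins Tpm1 and Tpm2, the Z disc protein Myoz1 and the actin-binding protein Xirp2. Tnnt3 was at 4673 ± 417 against 3666 ± 394 CPM (SD, n = 5), and the closest libraries were anti-CD40 1 (4333) and anti-PD1 3 (4127). Tpm2 differed by 0.39 ± 0.08, Tnnc2 by 0.39 ± 0.10 and Xirp2 by 0.41 ± 0.10. The slow troponin T gene Tnnt1 was the only member with a lower mean (-0.14), at 4.56 against 4.99 CPM.

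The calcium coupling list, which holds the channels and pumps of the triad, had 5 of 17 genes other than Ryr1 higher without overlap and a median of 0.29. All 17 had a higher mean. Atp2a1, the calcium pump SERCA1 of fast fibres, was at 9075 ± 751 against 7305 ± 554 CPM. Cacng1, a subunit of the voltage sensor, was at 50.3 to 63.8 against 32.7 to 47.6 CPM, a difference of 0.46 ± 0.12. Scn4a, the muscle sodium channel, differed by 0.38 ± 0.06, and Trdn, which anchors the release channel, by 0.33 ± 0.07. Pvalb, the calcium buffer of the fastest fibres, had the largest mean difference in the list (0.78 ± 0.34), yet its libraries overlap: vehicle 4 held 139 CPM and vehicle 2 held 227.

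The energy supply list had 5 of 18 genes higher without overlap, all 18 with a higher mean and a median of 0.37. Ckm, muscle creatine kinase, was at 4307, 4847, 3973, 3978 and 4218 CPM in the muscle-rich libraries, and 3758, 3839, 3508, 3120 and 2961 in the muscle-poor ones. The difference was 0.31 ± 0.09. Mb, the oxygen store myoglobin, was at 3206 ± 165 against 2521 ± 314 CPM, but anti-PD1 3 (3022) nearly reaches anti-CD40 1 (3062). Fabp3, a fatty acid carrier (0.42 ± 0.14), Cox8b, a muscle form of a cytochrome c oxidase subunit (0.44 ± 0.12), and Slc25a4, the ADP/ATP exchanger (0.38 ± 0.09), are the other 3. The nuclear genes of the electron transport chain moved less: all 19 had a higher mean, within 0.17 to 0.31. Sdha (0.24 ± 0.06), Ndufa4 (0.20 ± 0.06) and Ndufs1 (0.20 ± 0.06) were free of overlap. That is 3 of 19, while 2.72% of all genes were higher without overlap. Of the 13 protein-coding mitochondrial genes, 12 had a higher mean (median 0.24) and 0 were free of overlap, which at that share says little for a list this short.

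Structural and regulatory muscle genes followed with smaller medians. The dystrophin and sarcoglycan list had a median of 0.25, and 3 of 12 genes were higher without overlap, among them Dmd (0.32 ± 0.09) and Sgcb (0.26 ± 0.09). Dmd encodes dystrophin, and Sgcb a sarcoglycan that partners it at the fibre membrane. Sgcd, another sarcoglycan, was at 8.67 ± 1.42 against 8.12 ± 1.64 CPM. Among satellite cell and myogenic factor genes, Myf6 was the sole member of 12 without overlap, at 32.6 to 43.0 against 18.6 to 30.2 CPM (0.59 ± 0.14). Myf6 encodes MRF4, the myogenic factor of mature fibres. Pax7, the marker of satellite cells, was at 0.674 to 1.84 against 0.806 to 1.35 CPM, and Myog differed by 0.33 ± 0.15 with overlap. None of the 9 neuromuscular junction genes, 9 atrophy genes or 5 genes of developing fibres separated the sets. Over all genes only 2.72% were higher without overlap, so this says little for lists this short. The list medians were 0.14, 0.17 and 0.14. Within the atrophy list, the ubiquitin ligase genes Trim63 (0.69 ± 0.26) and Fbxo32 (0.52 ± 0.18) had the largest mean differences.

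Genes with no symbol or a predicted one, such as a Gm number, are left aside here. Among the other non-overlapping genes with a mean of at least 5 CPM, the largest differences were in genes outside the contractile lists. Esrrg encodes the orphan nuclear receptor ERRγ, a regulator of oxidative metabolism (ENSMUSG00000026610.13, chromosome 1, 187608791 to 188214885, GRCm38). It was at 39.1, 44.3, 51.2, 40.5 and 30.0 CPM in the muscle-rich libraries, and at 28.2, 21.3, 21.97, 15.6 and 17.3 in the muscle-poor ones. The sets do not overlap, and the difference was 0.98 ± 0.19 (1.96-fold), against 0.36 for the TMM-scaled 4-gene sum. Its relative Esrrb differed by 0.69 ± 0.16, from 10.7 to 14.0 against 5.97 to 10.0 CPM. Ppargc1a, the coactivator PGC-1α that works with these receptors, differed by 0.57 ± 0.19, with overlap.

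Ankrd2 encodes a stretch-responsive ankyrin repeat protein of the sarcomere. It was at 29.6 ± 4.83 against 17.2 ± 3.75 CPM (SD, n = 5), and it is free of overlap by the least margin, 21.98 in anti-CD40 1 against 21.97 in vehicle 2. In the middle libraries Ankrd2 ran from 14.1 to 40.8 CPM. Combination 5 (40.8) and vehicle 3 (35.6) lay above the highest muscle-rich library (34.0). Asb11, an adaptor of a ubiquitin ligase, differed by 0.75 ± 0.16. Usp13, a deubiquitinase, was at 174 to 259 against 108 to 160 CPM (0.71 ± 0.14). Depp1, a regulator of autophagy, differed by 0.81 ± 0.14, Arrdc2, an arrestin-domain protein, by 0.70 ± 0.19, and Ankrd33b by 0.67 ± 0.11. The middle libraries averaged 10.6 CPM of Depp1, under the muscle-poor mean of 10.7. Lpl, which encodes lipoprotein lipase, was named after its values were seen: it stood at 1428 against 941 CPM on average and was also higher without overlap.

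Among lower genes with a mean of at least 5 CPM, predicted symbols again left aside, those with the largest differences came from outside the muscle lists. Nrg1, which encodes the growth factor neuregulin 1, was at 5.07, 4.75, 6.58, 8.30 and 7.78 CPM in the muscle-rich libraries, and at 8.41, 9.65, 9.22, 8.57 and 11.8 in the muscle-poor ones. The difference was -0.57 ± 0.18, and vehicle 4 (8.30) nearly meets anti-PD1 1 (8.41). Nr4a2, an orphan nuclear receptor of the early response class, differed by -0.57 ± 0.17. Mfsd2a, a transporter of lysophospholipids, was at 11.8 ± 1.90 against 17.1 ± 0.903 CPM. Ptges, the synthase of prostaglandin E, was at 26.1 to 48.6 against 49.4 to 54.3 CPM. Fxyd3, an epithelial regulator of the sodium pump, was at 53.5 to 72.3 against 75.9 to 99.5 CPM. The potassium channel gene Kcnk6 (-0.54 ± 0.10), Parp12, an interferon-inducible ADP-ribosyltransferase (-0.46 ± 0.11), and Mob3b (-0.43 ± 0.09) complete the group. Parp12 averaged 22.7 CPM in the muscle-rich, 31.2 in the muscle-poor, 22.4 in the middle and 22.3 in the regorafenib libraries, so only its muscle-poor mean stood apart.

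**Figure D3:**
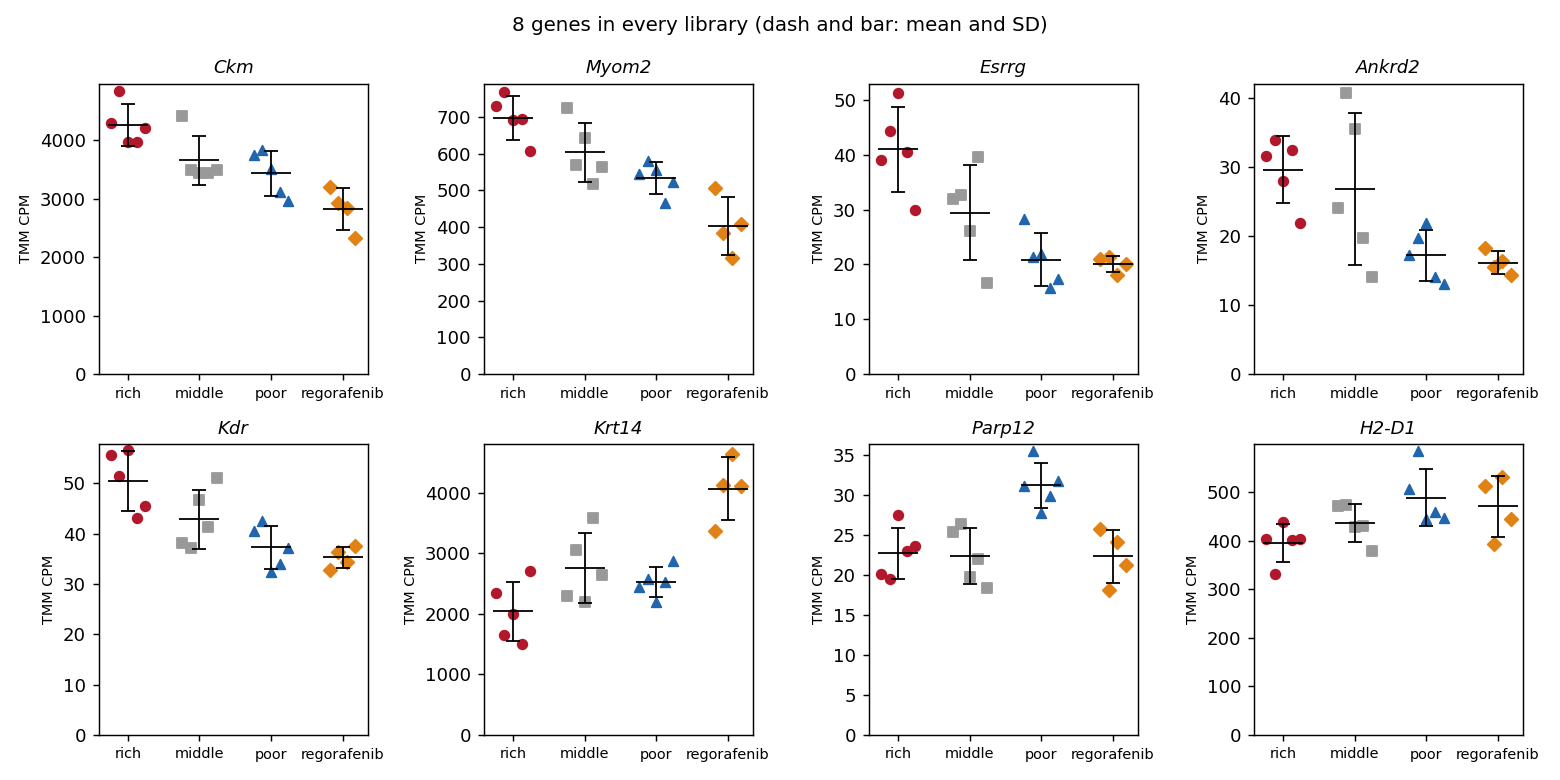
TMM-scaled CPM of 8 genes in every library, as points by set (muscle-rich, middle, muscle-poor, regorafenib alone), with a dash and bar for the mean and SD. The muscle-rich points of Ckm, Myom2, Esrrg, Ankrd2 and Kdr lie above the muscle-poor ones and those of Parp12 and H2-D1 below, while Krt14 overlaps.

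Epithelial genes were lower on average. None in these lists was lower without overlap, but over all genes only 0.597% were, so a count of 0 says little here. Of the 14 basal keratinocyte genes, 12 had a lower mean, 0 were free of overlap and the median was -0.10. Krt14 ran from 1503 to 2701 against 2191 to 2878 CPM, a difference of -0.34 ± 0.17. The 10 wound keratin and calgranulin genes all had a lower mean (median -0.36), and the spread among muscle-rich libraries was wide: S100a8 ran from 3.11 CPM in vehicle 4 to 726 in anti-CD40 1. Medians were -0.12 for suprabasal and tongue papilla genes, -0.09 for cornification and -0.12 for proliferation, where all 18 genes had a lower mean. Mki67, the marker of cycling cells, was at 94.3 ± 12.6 against 104 ± 20.4 CPM.

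Vessel genes leaned with muscle in these 10 libraries. Of 12 blood endothelial genes, 11 had a higher mean and the median was 0.36. Kdr, the receptor VEGFR2, was at 55.6, 51.5, 56.6, 43.1 and 45.6 against 40.6, 42.5, 32.3, 34.0 and 37.1 CPM (0.44 ± 0.11), and vehicle 4 (43.1) stands just above anti-PD1 3 (42.5). Emcn, an endothelial sialomucin, was at 13.3 to 16.0 against 9.57 to 13.2 CPM. Rgs5, a pericyte gene, was at 188 to 241 against 152 to 183 CPM. Of the 12 genes in the pericyte and smooth muscle list, 9 had a higher mean.

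Genes of other tissues varied widely within each set. Muc5b, a mucin of salivary glands, ran from 2.51 to 980 CPM in the muscle-rich and from 1.12 to 13492 CPM in the muscle-poor libraries, where anti-PD1 1 (13492) and vehicle 2 (5349) were high. The gland list as a whole had a mean log2 level of 0.51 to 4.70 against -1.64 to 7.48. Adipoq, the adipocyte hormone, was under 1 CPM in all muscle-rich libraries and highest in anti-PD1 1 (3.60). The part of these tissues in the other differences was not tested.

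Antigen presentation and interferon genes leaned the opposite way to muscle. All 20 had a lower mean in the muscle-rich set, with a median of -0.59. H2-D1, a class I heavy chain, was the 1 gene of 20 free of overlap, against 0.597% of all genes lower without overlap. It was at 403, 331, 439, 401 and 404 CPM against 507, 586, 445, 460 and 448, a difference of -0.30 ± 0.10, and combination 1 (439) lies next to vehicle 2 (445). The interferon-inducible genes Mx1 (-1.44), Cxcl9 (-1.34), Ifit1 (-1.34) and Cxcl10 (-1.28) had the largest mean differences and overlap. The list's mean log2 level was 4.49 ± 0.43 against 5.20 ± 0.43 (SD, n = 5). The highest of all libraries was anti-PD1 3 (5.84), and without the 2 anti-PD1 libraries the mean difference was -0.48 in place of -0.71. The part of anti-PD1 treatment in this difference was not tested, and no library of anti-PD1 alone is muscle-rich. The combination libraries also received anti-PD1: combination 1 and combination 3 are muscle-rich, and combination 4 is muscle-poor. Neutrophil genes had a median of -1.06, T and NK cell genes -0.25 and macrophage genes -0.06. The neutrophil list stood at 1.39 ± 1.07 against 2.60 ± 0.50 (mean log2 level, SD, n = 5), with vehicle 4 (-0.13) and anti-CD40 2 (0.72) lowest. No neutrophil gene was free of overlap, which says little when 0.597% of all genes were lower in this sense. Immediate early and heat shock genes, which also respond to tissue handling, all had a lower mean (14 of 14, median -0.26), at a mean log2 level of 4.89 to 5.23 against 5.08 to 5.63.

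Since treatments are unevenly spread over the sets, a slope was also estimated over all 15 ranked libraries with treatment as a term. The slope is the log2 change of a gene per doubling of the 4-gene sum. The sum is in raw CPM and the gene's level is TMM-scaled, so the slopes of the ranking genes themselves serve as the reference: 1.26 for Acta1, 1.15 for Ttn, 0.92 for Ryr1 and 0.87 for Neb. The slope reuses the ranking values and is again an estimate without a test. The median was 0.94 for the 460 higher genes, -0.66 for the 101 lower genes and -0.03 for all genes. Without the ranking genes, the list medians were 0.92 (thick filament), 1.18 (thin filament), 1.01 (calcium coupling) and 1.29 (energy supply). Nuclear electron transport genes stood at 0.75, dystrophin and sarcoglycan genes at 0.81 and neuromuscular junction genes at 0.39. Esrrg (3.05 ± 0.56), Ankrd2 (2.77 ± 0.66), Asb11 (2.46 ± 0.39) and Usp13 (2.23 ± 0.33, SE) had slopes above those of the 4 ranking genes. They were picked for large differences between sets drawn from these same libraries, so steep slopes here follow in part from that choice. The endothelial list had a median of 1.20, the basal keratinocyte list -0.57 and the antigen presentation list -1.22, where 0 of 20 slopes were positive.

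The 9 libraries in neither set allow a test of the relation. The slope on the 4-gene sum was fitted in the 5 middle and 4 regorafenib libraries with a term for regorafenib monotherapy, using edgeR's quasi-likelihood F-test, two-sided, with Benjamini-Hochberg adjustment over 16905 genes (the ranking genes left out). At an adjusted p of 0.05, 0 genes were called in either direction (0% higher, 0% lower), and the smallest adjusted p was 0.988. At an unadjusted p under 0.05 there were 682 genes (4.03% of those tested), 393 of them with a positive slope. The term leaves a narrow range of muscle content, 0.12 on the log2 scale among the middle and 0.29 among the regorafenib libraries, and 6 residual degrees of freedom. DESeq2 on the same libraries called 8 genes higher and 1 lower, and limma-voom called 0 (743 at an unadjusted p under 0.05). The DESeq2 genes were Cilp, Lpl, Myh1, Myot, Ndrg2, Tnnt3, Tpm1 and Tpm2, with Gnai1 lower. Of these, Tnnt3 (slope 1.40 ± 0.30, SE), Tpm1 (1.43 ± 0.33) and Tpm2 (1.30 ± 0.28) encode thin filament proteins, and Myot a Z disc protein. The labels do not say that the libraries of a group are separate animals, so these p-values measure only the spread between libraries.

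The held-out slopes are given by list as a description. All 12 thick filament genes, all 23 thin filament genes, all 17 calcium coupling genes and all 18 energy genes outside the ranking had a positive slope, with medians of 0.91, 1.25, 0.98 and 1.01. Over all genes 48.8% were positive and the median was -0.02. An unadjusted p under 0.05 was found for 3 of the 12 thick filament genes, 11 of the 23 thin filament genes, 12 of the 17 calcium coupling genes and 6 of the 18 energy genes. For Ckm the slope was 1.26 ± 0.47 (SE) and for Mb 1.14 ± 0.42. Esrrg was at 1.05 ± 1.14, Ankrd2 at 1.70 ± 1.49, Asb11 at 2.00 ± 0.67 and Usp13 at 1.66 ± 0.74. The ranking genes themselves were at 1.75 (Acta1), 0.77 (Ttn), 0.47 (Neb) and 0.44 (Ryr1). All 19 nuclear electron transport genes (median 0.59) and all 13 mitochondrial genes (0.87) were positive, with 0 and 1 at an unadjusted p under 0.05. Neuromuscular junction genes were not, with 4 of 9 positive.

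Outside muscle, the held-out libraries did not always lean the way the chosen sets did. All 14 basal keratinocyte genes had a negative held-out slope (median -1.12), and so did all 10 wound keratin genes (-0.72). Endothelial genes had a median of -0.29, with 5 of 12 positive, against 1.20 over the ranked libraries. Kdr itself was at -0.75 ± 0.50 (SE). Antigen presentation and interferon genes had 14 of 20 positive slopes and a median of 0.46, against -1.22 over the ranked libraries, and H2-D1 was at 0.17 ± 0.58. Schwann cell genes had 2 of 11 positive (median -1.58). Salivary gland genes had 13 of 14 positive with a median of 5.52, and adipocyte genes 7 of 8 with a median of 1.62. Among the middle libraries, the gland list had a mean log2 level of 6.1 in anti-PD1 2 and 6.9 in combination 5. It was at 2.5 in combination 2, -1.5 in vehicle 1 and -1.8 in vehicle 3. The part of gland content in the held-out slopes was not tested. The ranked slope has a term for every treatment, while the held-out fit has none for vehicle, anti-PD1 or combination. Among the middle libraries, anti-PD1 2 had the highest 4-gene sum (10550) and the highest antigen presentation level (5.11, mean log2). Vehicle 1 had the lowest of both (9682 and 3.99). The difference between the held-out and the ranked slopes, and the part of treatment in it, was not tested.

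**Figure D4:**
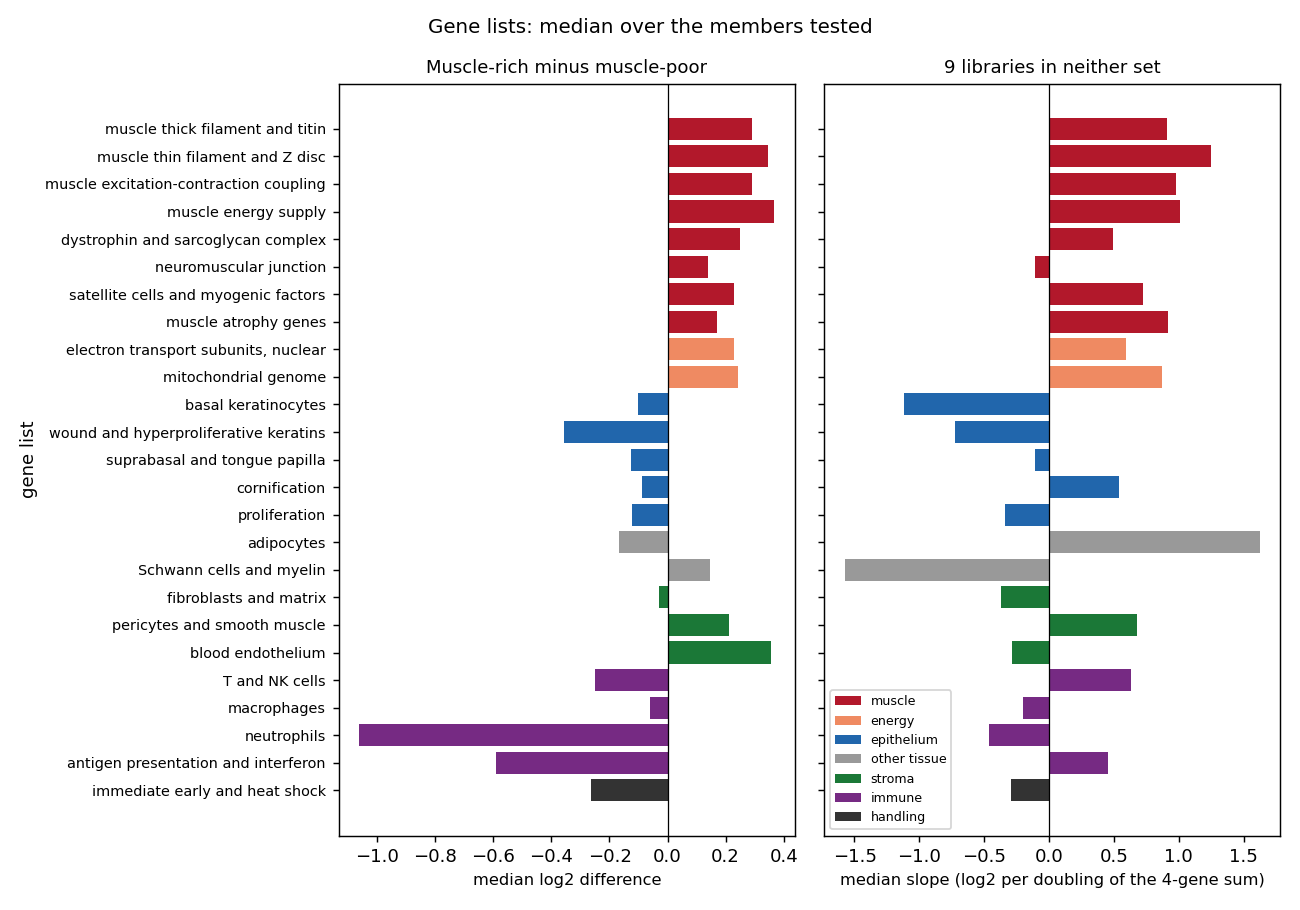
Bars give the median log2 difference (left) and the median held-out slope (right) over the tested members of 25 gene lists, coloured by role. The 6 lists with fewer than 8 tested members or of gland and stomach genes are left out. The contractile, calcium coupling, energy and mitochondrial lists lie right of 0 in both panels, basal and wound keratin lists left of 0 in both, and the neuromuscular junction, cornification, endothelial, Schwann, adipocyte, T cell and antigen presentation lists on opposite sides.

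The levels of the counted genes in libraries outside the sets can be read directly. The mean of the regorafenib libraries lay under the muscle-poor mean for 370 of the 460 higher genes (80.4%) and for 42 of the 101 lower ones (41.6%), against 49.2% of all genes. All regorafenib libraries also had a 4-gene sum under the muscle-poor set, so the drug and low muscle content cannot be told apart in them. Myom2 fell in the order of the 4-gene sum, at 698 (muscle-rich), 603 (middle), 534 (muscle-poor) and 403 CPM (regorafenib) on average. Krt14 averaged 2041, 2754, 2526 and 4067 CPM in the same order of sets, so its middle libraries do not lie between the chosen ones. The middle mean of log2 CPM lay between the set means for 434 of the 460 higher and 87 of the 101 lower genes, against 45.6% of all genes. A wide gap between the sets makes this easier. Parp12 and Depp1 are among the exceptions, and the held-out slope of Parp12 was 0.61 ± 0.73 (SE). Esrrg averaged 20.1 CPM under regorafenib alone and 20.9 in the muscle-poor set. Of 456 higher genes outside the ranking, 400 (87.7%) had a positive held-out slope and 81 (17.8%) an unadjusted p under 0.05. Of the 101 lower genes 19 had a positive slope (18.8%) and 5 an unadjusted p under 0.05 (4.95%, against 4.03% of all genes).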

How the data were processed

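Whole-number read counts per gene were deposited by the authors as 1 table of 55487 Ensembl genes and 19 columns, which match the sample descriptions. Per the submitters' processing notes, reads were trimmed with cutadapt 2.4 and aligned with STAR 2.7.2a to GRCm38. The libraries are stranded, per the labels' protocols. For the counting tool and its strand setting, nothing is given in the sources used here, so antisense and overlapping genes are uncertain. GENCODE release 21 gave symbols and positions to 55227 IDs. The closest pair of libraries (vehicle 3 and vehicle 1) differed with a chi-square of 11.85 per degree of freedom, so no library was merged with another.

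Libraries were ranked by raw CPM. Genes were filtered with filterByExpr by treatment, which kept 16909, and scaled with TMM over all 19 libraries (edgeR 4.0.16, R 4.3.3). Log2 CPM used a prior count of 2. Slopes came from edgeR's quasi-likelihood fit. limma 3.58.1 and DESeq2 1.42.0 were alternatives, and the fits were tested on simulated data.

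Named genes are a set list of ranking, muscle and other marker genes, the 8 largest differences in each direction among non-overlapping genes with a mean of at least 5 CPM, and up to 3 non-overlapping genes from each list. The largest differences leave out the ranking genes and genes with no symbol or a predicted one (Gm number, Rik or accession style). Myh3, also on the set list, did not pass the filter. A few genes chosen this way are not reported here. Other genes named with a value are list members, or were named after their values were seen. The libraries, lists and rules were chosen with earlier results of these data known.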

Additional observations from a re-analysis of the deposited data

Results flagged for a closer look

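Of 133 sets of libraries examined for a single outlying value, 1 was singled out: Col1a1, which encodes a chain of type I collagen, was at 91.28 CPM in anti-PD1 1 of the muscle-poor set, against 32.9 to 47.8 CPM in the other 4 libraries of that set. By its construction the threshold used flags about 1 in 20 sets of independent normal values by chance; the rate in these sets was not tested. The mean log2 difference of Col1a1 was -0.16 with this library and 0.08 without it.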

How the results depend on the processing

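The counts of higher and lower genes depend on how the sets are cut. They were 460 and 101 as reported, and 299 and 161 on raw CPM. Ranking by Acta1 alone and by the 52 other muscle genes gave the same sets as each other, with 4 muscle-rich and 2 muscle-poor libraries of the reported ones, and 735 and 320, of which 171 and 12 are among the reported genes. Equal weights for the 4 genes gave 236 higher genes, 156 of them shared. Sets of 4 gave 1114 and 615, sets of 7 gave 49 and 8, and a 1.5-fold minimum gave 27 and 18. Leaving out the anti-PD1 libraries of the muscle-poor set, an alternative added after seeing the data, gave 1651 and 616. Smaller sets separate more easily by construction. Leaving out 1 library gave 494 to 935 higher and 129 to 309 lower genes. In the held-out libraries, 773 genes were called higher and 334 lower without the regorafenib term, where differences between regorafenib and other libraries enter the slope. DESeq2 called 8 and 1. Leaving out 1 of the 9 libraries gave 0 to 1 higher (Cilp, without regorafenib 3) and 0 lower. Deviations of same-numbered libraries correlated at -0.27 to 0.54 (median 0.07), and those of different-numbered libraries at -0.71 to 0.62 (median -0.08). The ranges overlap, so pairing by replicate number was neither shown nor excluded. With the number as a replicate block, 3636 genes had a within-treatment slope of at least 0.5, against 3575 without it, and 3252 to 4042 with 1 library left out. For a gene that separates the sets, leaving out a library or using sets of 4 cannot change the sign. Under the other scalings and sets of 7, where it could, no named gene that separated the sets changed sign. Muc5b, Adipoq, Col1a1, Cd3e and Sgcd changed sign when 1 library was left out.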
